A study of Mus musculus with 15 samples.

Results

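The genes described here are 10 genes of MHC class I and antigen processing, namely H2-K1, H2-D1, B2m, Tap1, Tap2, Tapbp, Psmb8, Psmb9, Psmb10 and Nlrc5. They were chosen by name, and all 10 were found by symbol among the 34432 genes listed in each of 2 tables of normalized counts. The tables hold RNA-sequencing of CT26, a mouse colon tumor cell line from a BALB/c mouse, in 15 libraries of cultured cells. In the knockdown experiment, 3 shControl libraries (genotype Ctrl knockdown) were compared with 3 shPrmt1 libraries (genotype Prmt1 knockdown, spelled shPRM1 in their titles), in which a DOX-inducible hairpin against Prmt1 was carried by lentivirus in a puromycin-selected pool of cells and induced for 3 days. Whether the shControl cells were given DOX is not stated in the sources used here. In the inhibitor experiment, wild-type (WT) CT26 cells were given vehicle (titled Control), MS023 or GSK3368715, with 3 libraries each, and both compounds were used at 6 µM for 48 hours. MS023 and GSK3368715 are inhibitors of the type I protein arginine methyltransferases, the enzyme class to which PRMT1 belongs. The design text names the 3 libraries of each group biological replicates, and the p-values given here measure the spread between these libraries. Each treated group was compared with its own control group, to ask whether class I presentation genes differ in cells with less PRMT1 or with PRMT1 inhibited.

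MHC class I molecules show peptides from inside the cell to CD8+ T cells. Proteins are cut by the proteasome, whose constitutive catalytic subunits can be replaced by the immunoproteasome subunits encoded by Psmb8, Psmb9 and Psmb10. The Tap1 and Tap2 proteins form the transporter that carries the peptides into the endoplasmic reticulum, and tapasin, the product of Tapbp, holds the class I molecule at this transporter while peptide is loaded. H2-K1 and H2-D1 encode classical class I heavy chains, B2m encodes beta-2 microglobulin, the light chain that the heavy chains need to reach the surface, and Nlrc5 encodes a transactivator of class I genes. Most of these genes are well known as interferon-responsive genes, and low class I expression is a known trait of tumor cells that T cells fail to recognize.

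The knockdown libraries held 17284091 to 29233738 reads on genes and the inhibitor libraries 40119305 to 93697833. In shControl, Prmt1 itself was at 5601, 5717 and 5620 normalized counts, and in shPrmt1 at 669, 761 and 683, a log2 fold change of -3.0 ± 0.07 (SE, n = 3 against 3, adjusted p = 3.79e-07 by limma). It did not pass the test under MS023 (-0.07) or GSK3368715 (-0.01). Markers of an intestinal epithelium were sparse. Of 10 such markers Epcam had no read in any library, and the whole list summed to 34.3 to 38 RPM (reads-per-million on genes) in shControl, 25.8 to 32.2 in shPrmt1, 20.8 to 23.7 in vehicle, 30.1 to 31.6 in MS023 and 23.8 to 27 in GSK3368715. These shifts of the sum followed Krt18, with means of 27 RPM in shControl, 20.9 in shPrmt1, 15.7 in vehicle, 23.4 in MS023 and 19.1 in GSK3368715. Krt18 was called lower in the knockdown (-0.41) and higher under MS023 (0.55) and GSK3368715 (0.27). The knockdown call was lost without any shControl library or without shPrmt1 library 3 (adjusted p = 0.0533 to 0.129 by limma), and the GSK3368715 call without any library of the 6 but vehicle library 1 (0.0559 to 0.163). Krt8, at a mean of 7.43 normalized counts in vehicle and 24 in MS023, was also called higher under MS023 (1.83), a call lost without vehicle library 2 or any MS023 library (0.0665 to 0.0944). Krt20, the other abundant marker, passed no test (8.44, 8.37, 6.48, 6.91 and 5.73 RPM in the same order). By contrast, 8 mesenchymal markers, mostly Vim and Col1a2, summed to 4937 to 7248 RPM. Of the 7 tested, 3 were called higher in the knockdown, 1 higher and 2 lower under MS023 and 1 higher under GSK3368715, beside 7.5%, 13.7% and 5.16% of all genes called higher and 14.1% called lower under MS023. Col1a1 was at log2 fold changes of 0.97 in the knockdown and -0.52 under MS023, and Pdgfrb at 0.69, 0.40 and 0.64 in the knockdown, MS023 and GSK3368715. The MS023 calls were lost for Pdgfrb without MS023 library 2 or 3 (adjusted p = 0.0572 to 0.0725 by limma) and for Col1a2 without vehicle library 3 or MS023 library 1 or 2 (0.062 to 0.0928). The part of these markers in the results was not tested. The 10 leukocyte markers, whose cells carry much class I, summed to 0.207 to 0.889 RPM in all libraries, with Cd3e at 0. In bulk RNA, fewer cells that express a gene and less RNA of that gene per cell cannot be told apart.

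In the annotation of the mm10 build, 7 of the 10 genes lie on chromosome 17, in or next to the mouse MHC, with Psmb10 and Nlrc5 on chromosome 8 and B2m on chromosome 2. H2-K1 (chr17:33996017-34000347, minus strand), Tapbp (chr17:33915899-33929292, plus) and H2-D1 (chr17:35262730-35267499, plus) stand apart along the chromosome, while Psmb9 (chr17:34181987-34187764, minus), Tap1 (chr17:34187553-34197225, plus), Psmb8 (chr17:34197721-34201454, plus) and Tap2 (chr17:34203527-34216321, plus) are neighbours within 34.34 kb. B2m is at chr2:122147686-122153083 (plus), Nlrc5 at chr8:94434356-94527272 (plus) and Psmb10 at chr8:105935735-105938444 (minus). Psmb9 and Tap1 are read in opposite directions and their exons overlap by 212 bases. The sources used here do not say whether reads were counted by strand, so reads in the 212 bases that Psmb9 and Tap1 share could have been given to either gene. The same holds for Tap2, which shares 533 exonic bases with Gm15821 on the opposite strand. Genes not among those listed overlap exons of Tapbp (904 bases), Psmb8 (498), Tap2 (165) and Nlrc5 (78) on the opposite strand. Tapbp shares 149 exonic bases with Zbtb22 on the same strand. CT26 carries the d haplotype of the mouse MHC and the reference is of the b haplotype, so the rows named H2-K1 and H2-D1 hold reads matched to the sequence of another haplotype. No other transcript of this reference reached 95% identity over 30% of the length of a member. H2-L, one of the class I genes looked for, was not found among the genes listed. A copy missing from the reference could not be found by this search. The highest percent identity to H2-D1 and H2-K1 was that of H2-Q4, at 91.6% over 31.9% and 91.4% over 58.4% of their lengths. H2-K1 aligned with H2-D1 over 93.5% of its length, at 88.2% identity.

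RefSeq promoter windows on GRCm38.p6, from 250 bases before to 50 bases after a start site, were found for 8 of the 10 genes, all but Tap2 and Nlrc5. The classical heavy chains and B2m are shown first, because they are the genes through which class I reaches the cell surface, and Tap1 is shown because its window shares 275 bases with that of Psmb9. Capitals mark matches to 3 letter patterns searched on both strands: AANNGAAA, the core bound by interferon regulatory factors; GGGANNNNCC, the NF-kappa B pattern; and TGACG followed on the same strand, 15 to 25 bases later, by ATTGG, which are the X2 and Y letters of the class I enhancer that NLRC5 acts through. The patterns were chosen with these windows in view.
H2-K1, chr17:34000284-34000583, minus strand: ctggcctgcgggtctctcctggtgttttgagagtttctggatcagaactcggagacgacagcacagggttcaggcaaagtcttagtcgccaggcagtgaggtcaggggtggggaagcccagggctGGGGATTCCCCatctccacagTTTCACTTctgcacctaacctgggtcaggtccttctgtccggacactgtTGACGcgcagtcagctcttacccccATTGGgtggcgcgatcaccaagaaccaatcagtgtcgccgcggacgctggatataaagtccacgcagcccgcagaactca
H2-D1, chr17:35262844-35263143, plus strand: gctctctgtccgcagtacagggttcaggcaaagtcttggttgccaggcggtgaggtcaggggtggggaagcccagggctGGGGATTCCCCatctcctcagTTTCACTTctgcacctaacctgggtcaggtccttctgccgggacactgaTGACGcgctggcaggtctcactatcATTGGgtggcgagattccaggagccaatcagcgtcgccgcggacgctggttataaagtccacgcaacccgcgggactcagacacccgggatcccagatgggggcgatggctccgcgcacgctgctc
B2m, chr2:122147437-122147736, plus strand: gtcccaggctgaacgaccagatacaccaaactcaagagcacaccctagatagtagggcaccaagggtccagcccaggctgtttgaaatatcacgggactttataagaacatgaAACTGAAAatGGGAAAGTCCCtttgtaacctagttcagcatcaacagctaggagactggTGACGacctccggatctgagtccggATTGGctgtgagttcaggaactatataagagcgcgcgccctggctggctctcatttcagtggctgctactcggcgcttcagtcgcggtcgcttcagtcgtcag
Tap1, chr17:34187306-34187605, plus strand: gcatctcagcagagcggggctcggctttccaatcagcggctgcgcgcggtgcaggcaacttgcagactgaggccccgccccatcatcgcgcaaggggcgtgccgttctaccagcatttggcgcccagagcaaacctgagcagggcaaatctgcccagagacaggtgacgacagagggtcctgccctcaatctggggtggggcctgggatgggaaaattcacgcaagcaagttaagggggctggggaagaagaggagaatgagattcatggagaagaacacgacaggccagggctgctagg

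H2-K1, H2-D1 and B2m each held all 3 patterns, with the interferon pattern and the kappa B pattern next to each other and the X2 and Y letters nearer to the start. The kappa B letters matched on both strands at overlapping positions in each of the 3 windows. Measured from the RefSeq start, the TGACG of the pair began at -55 in the H2-K1 window shown and at -41 from a second RefSeq start of H2-K1, at -101 in H2-D1 and at -78 in B2m. Of 32851 RefSeq windows of the same length, 23.9% held the interferon pattern, 20.7% the kappa B pattern and 0.435% the X2 and Y pair. All 3 patterns were also in the windows of H2-Q7, of H2-M3, a class I gene called in no comparison, and of H2-Aa, a class II gene with no read in any library. The windows of Tap1, Psmb9, Psmb8, Psmb10 and Tapbp held none of the 3 patterns, which says only that these letters were not in these windows.

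The levels of the 10 genes in control cells covered more than 2 orders of magnitude, from B2m and the heavy chains down to Psmb9 and Nlrc5. On the scale of RPM per kb of the longest transcript, B2m was at 295 ± 21.4 in shControl and 580.2 ± 49.5 in vehicle (SD, n = 3). H2-D1 followed at 136 ± 6.12 and 285 ± 33.9, then H2-K1 at 79.1 ± 1.61 and 188 ± 24.6, and Tapbp at 23.1 ± 1.25 and 76.2 ± 11.9. The lowest levels in shControl were those of Psmb8 (0.902 ± 0.205), Nlrc5 (0.253 ± 0.218) and Psmb9 (0.22 ± 0.0942), and the ranges of Nlrc5 and Psmb9 overlapped. In vehicle the order was the same for the highest 4 genes, followed by Tap2, Tap1, Psmb10, Psmb8, Psmb9 and Nlrc5, and only Tap2 and Tap1 overlapped among neighbours. The treated groups kept the order of their own control group, except that Nlrc5 came after Psmb9 in shPrmt1, with Psmb10, Tap2 and Tap1 overlapping in sequence there.

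**Figure D1:**
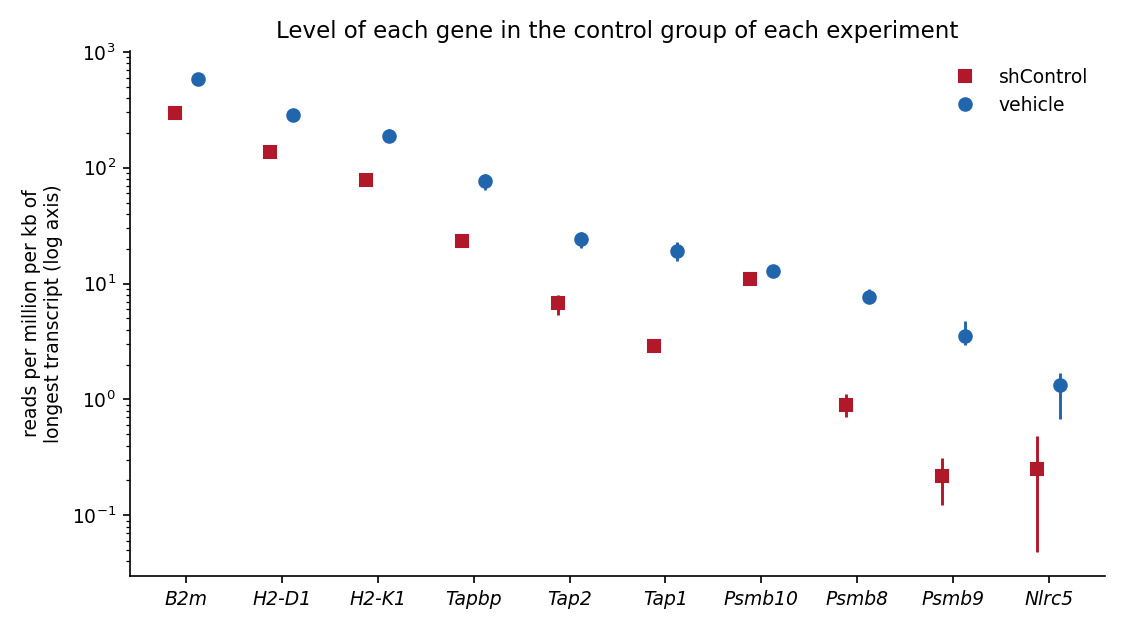
Level of each gene in the shControl (squares) and vehicle (circles) libraries, in RPM per kb of the longest transcript on a log axis; symbols are means and bars run from the lowest to the highest of 3 libraries. Psmb9, Psmb8 and Tap1 lie furthest apart between the control groups and Psmb10 lies closest.

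Control cells of the inhibitor experiment held more class I RNA than those of the knockdown experiment. On the RPM scale, the mean in vehicle was 16.1 times that in shControl for Psmb9, 8.53 times for Psmb8, 6.56 times for Tap1 and 5.24 times for Nlrc5, whereas it was 2.38 times for H2-K1, 1.97 times for B2m and 1.16 times for Psmb10. The median over 10698 genes with at least 1 RPM in both groups was 1.07, and 4.74% of them were at 2 times or more. Psmb9 lay below that minimum in shControl, at a mean of 0.297 RPM from 21 reads in all, so its ratio is uncertain. The experiments were normalized separately and the cells of one had been through lentiviral selection. Hairpin, selection and batch therefore cannot be told apart, and the difference was not tested.

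Knockdown of Prmt1 was accompanied by higher RNA of most class I genes. With Psmb9 set aside, the largest factors among the genes called were those of the immunoproteasome subunit Psmb8 and the transporter subunit Tap1. Another immunoproteasome subunit, Psmb10, did not pass the test. Psmb9 reached the minimum of 10 normalized counts only in the shPrmt1 libraries, so that it had to differ once tested, and it is left out of the counts given next. Of the other 9 genes, 6 were higher in shPrmt1 at an adjusted p under 0.05 and none was lower, beside 7.5% of all 11485 genes tested that were called higher and 7.17% that were called lower. In 7 of the 9 every shPrmt1 library lay above every shControl library, beside 19.2% of all genes tested. Their median log2 fold change was 0.65, beside -0.00 over all genes tested. With all libraries scaled to the same total, the calls over all genes were 1082 higher and 666 lower, against 861 and 823 as reported here, and the same 6 genes were called.

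The immunoproteasome subunits Psmb8 and Psmb9 held few reads in shControl cells. Psmb8, which encodes the subunit LMP7, was at 38.7, 30.2 and 24.3 normalized counts in shControl and at 133, 150.3 and 139 in shPrmt1, a fold of 4.48 (log2 2.16 ± 0.20 SE, adjusted p = 0.000396 by limma). Every shPrmt1 library was more than 3 times above every shControl library. Psmb9, which encodes LMP2, was at 3.52, 6.48 and 8.85 in shControl and at 19.4, 30.3 and 31.6 in shPrmt1 (log2 1.99 ± 0.40), values that rest on 21 reads in all in shControl and 73 in shPrmt1. It is given as a description, since it passed the filter through shPrmt1 alone and could not be tested with a minimum of 50 or without any 1 shPrmt1 library. The groups did not overlap, and the lowest shPrmt1 library was the one nearest to shControl. Psmb10, which encodes MECL-1 and lies on another chromosome, was at 305, 284 and 327 in shControl and at 266, 246 and 298 in shPrmt1. These ranges overlapped and the log2 difference of -0.18 (95% interval -0.43 to 0.07) did not pass the test (adjusted p = 0.304).

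Of the peptide transport and loading genes, Tap1 rose from 196, 162 and 189 normalized counts in shControl to 454, 406 and 482 in shPrmt1, a fold of 2.45 (log2 1.29 ± 0.11, adjusted p = 0.000361 by limma). The groups were far apart and the 3 libraries of each lay close together. Tap2, the other transporter subunit, was at 581, 391 and 506 against 704, 456 and 785, and its groups overlapped because shPrmt1 library 2 lay within the shControl range (log2 0.38, 95% interval -0.11 to 0.86, adjusted p = 0.268). Without that library, the log2 difference was 0.61 and passed the test (adjusted p = 0.021 by limma), and without shControl library 2 or shPrmt1 library 3 it was 0.22 and did not pass. Tapbp was at 1458, 1325 and 1472 in shControl and at 2358, 2024 and 2440 in shPrmt1, higher in every library (log2 0.68 ± 0.09, adjusted p = 0.002). Zbtb22, which shares exonic bases with Tapbp, was at a mean of 535 in shControl and 538 in shPrmt1.

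The heavy and light chains were the most abundant of the genes and rose by a smaller factor. H2-D1 was at 5967, 5799 and 6321 normalized counts in shControl and at 10092, 8497 and 9855 in shPrmt1 (fold 1.57, log2 0.65 ± 0.08, adjusted p = 0.00135 by limma). H2-K1 went from 2716, 2646 and 2760 to 4207, 3396 and 3876 (fold 1.41, log2 0.49 ± 0.08, adjusted p = 0.0064). B2m went from 5482, 5670 and 4919 to 7499, 8811 and 7329 (fold 1.47, log2 0.55 ± 0.09, adjusted p = 0.00511). In all 3 genes the lowest shPrmt1 library was above the highest shControl library.

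Nlrc5, the transactivator of class I genes, was at 37.0, 77.0 and 7.74 normalized counts in shControl and at 153, 149 and 88.8 in shPrmt1. The groups did not overlap, but the shControl libraries differed among themselves more than those of any other of the 10 genes, and the log2 fold change of 2.11 ± 0.68 missed the threshold (adjusted p = 0.0727 by limma). It passed without shControl library 2 (log2 2.81, adjusted p = 0.0299), and without shControl library 3, the low one, the log2 difference was 1.23 and did not pass.

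**Figure D2:**
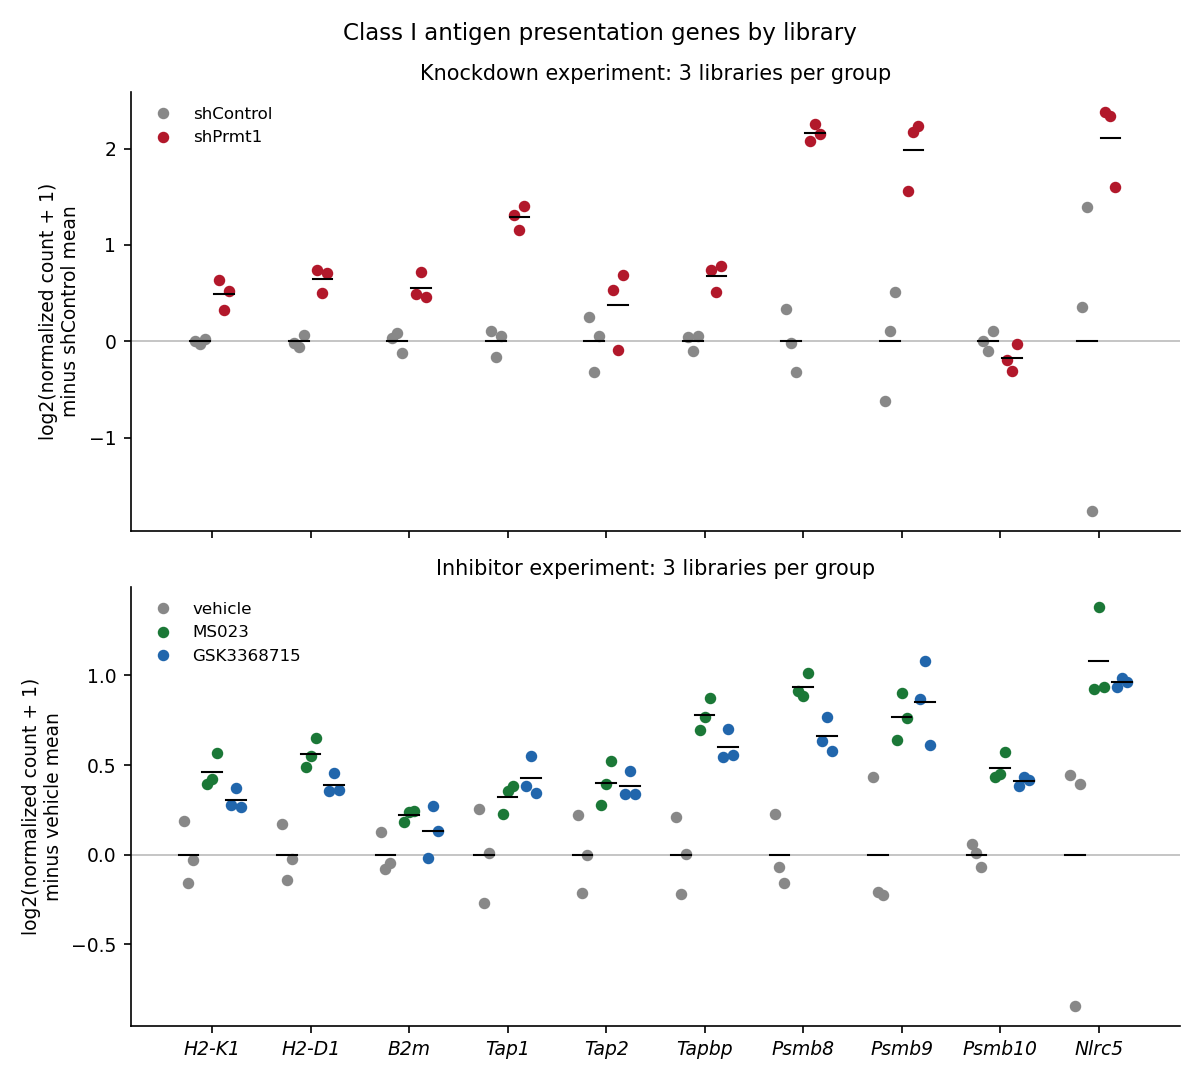
Each point is 1 library, as log2(normalized count + 1) minus the mean of the control group of its experiment, and black lines are group means; the upper panel shows shControl (grey) and shPrmt1 (red), the lower panel vehicle (grey), MS023 (green) and GSK3368715 (blue), on axes of different range. Psmb8, Psmb9, Tap1 and Nlrc5 stand highest in shPrmt1, Psmb10 lies slightly below 0 there and above 0 under both inhibitors, and Nlrc5 has the widest spread among control libraries.

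Under MS023, 8 of the 10 genes were called higher and none lower, beside 13.7% of 13014 genes tested that were called higher and 14.1% that were called lower. In 9 of the 10 every MS023 library lay above every vehicle library, beside 22.4% of all genes tested. The changes were of a smaller range than in the knockdown, with folds of 1.32 to 2.12 among the genes called, against 1.41 to 4.48 there, and a median log2 fold change of 0.53, beside 0.00 over all genes tested. At the same total, all 10 genes were called, with 2200 genes higher and 1509 lower in all, against 1784 and 1841 as reported here.

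Psmb8 was again among the genes furthest from control. It was at 875, 711 and 671 normalized counts in vehicle and at 1408, 1384 and 1507 in MS023, a fold of 1.91 (log2 0.94 ± 0.10, adjusted p = 0.000149 by limma). Psmb9 was at 380, 243 and 240.0 against 439, 525 and 478 (log2 0.77 ± 0.18, adjusted p = 0.00976). The MS023 library nearest to vehicle was library 1, which lay above vehicle library 1 by less than the vehicle libraries differed among themselves. Psmb10 was at 1042, 1009 and 954 against 1353, 1368 and 1491 (log2 0.49 ± 0.07, adjusted p = 0.000515), and both groups were tight and apart.

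Tapbp, the tapasin gene, was at 15232, 11311 and 13197 normalized counts in vehicle and at 21331, 22355 and 24103 in MS023 (fold 1.72, log2 0.78 ± 0.10, adjusted p = 0.000329 by limma). H2-D1 was at 40265, 32415 and 35195 against 50342, 52545 and 56128 (log2 0.56 ± 0.08, adjusted p = 0.000607). H2-K1 was at 20752, 16342 and 17823 against 23971, 24364 and 27018 (log2 0.46 ± 0.08, adjusted p = 0.00264). Vehicle and MS023 did not overlap in these 3 genes.

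The other presentation genes lay close to the threshold. Tap2 was called at a log2 fold change of 0.40 (adjusted p = 0.0145 by limma) and was not called without MS023 library 3 (0.34, adjusted p = 0.0623). Tap1 was at 4006, 2787 and 3384 normalized counts in vehicle and at 3922, 4300 and 4377 in MS023, and the groups overlapped through vehicle library 1 (log2 0.32, 95% interval 0.07 to 0.57, adjusted p = 0.0557). Without that library it passed, at 0.45 (adjusted p = 0.00653), and without vehicle library 2, the low one, it was at 0.19 and did not pass. B2m was at 32622, 28325 and 28893 against 33934, 35189 and 35457, higher in every MS023 library, and its log2 difference of 0.22 (95% interval 0.05 to 0.39) had an adjusted p of 0.054, or, without vehicle library 1, 0.28 with an adjusted p of 0.0203.

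Nlrc5 was at 761, 311 and 736 normalized counts in vehicle and at 1063, 1457 and 1070 in MS023 (log2 1.08 ± 0.28, adjusted p = 0.0159 by limma). Vehicle library 2 was the low one, and without it the log2 difference was 0.66, the lowest value when a library was left out, while without MS023 library 2, the high one, the call was lost (0.93, adjusted p = 0.0648). Among vehicle libraries, library 1 was the highest in all 10 genes and library 2 the lowest in 7.

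Under GSK3368715, 8 of the 10 genes were called higher and none lower, beside 5.16% of the 13014 genes tested that were called higher and 4.47% that were called lower. In 9 of the 10 every GSK3368715 library lay above every vehicle library, beside 13.7% of all genes tested. The vehicle libraries are the same as for MS023, so the comparisons with the inhibitors share their control values. The median log2 fold change was 0.42, beside 0.00 over all genes tested. Of the 8 calls, H2-K1 (0.31, adjusted p = 0.0437), Tap1 (0.43, adjusted p = 0.04) and Tap2 (0.38, adjusted p = 0.0389) stood just inside the threshold by limma. Each of these 3 lost its call when any of vehicle libraries 2 and 3 or any of the 3 GSK3368715 libraries was left out, at adjusted p-values of 0.0652 to 0.125.

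The calls that did not lie at the threshold were those of Psmb8, Psmb10, Tapbp and H2-D1. Psmb8 was at 1159, 1275 and 1115 normalized counts in GSK3368715, all above the 671 to 875 of vehicle (fold 1.58, log2 0.66 ± 0.10, adjusted p = 0.00386 by limma). Psmb10 was at 1308, 1355 and 1337, above the 954 to 1042 of vehicle (log2 0.41 ± 0.07, adjusted p = 0.00463). Tapbp was at 19208, 21360 and 19320 (log2 0.60 ± 0.10, adjusted p = 0.00492), and Zbtb22, its partner in the shared exonic bases, was itself called higher (0.29, adjusted p = 0.014). H2-D1 was at 45785, 49096 and 46041 (log2 0.39 ± 0.08, adjusted p = 0.0127). GSK3368715 library 2 was the highest of its group in all 10 genes.

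Psmb9 was at 513, 595 and 430 normalized counts in GSK3368715 (fold 1.81, log2 0.85 ± 0.18, adjusted p = 0.0158 by limma), which was lost without vehicle library 3 (0.74, adjusted p = 0.0633) or GSK3368715 library 2 (0.74, adjusted p = 0.0544). Nlrc5 was at 1071, 1109 and 1090, the tightest of its groups and above every vehicle library, and its log2 difference of 0.96 ± 0.28 missed the threshold (adjusted p = 0.0556). It passed without vehicle library 2, at 0.54 (adjusted p = 0.0263), and without vehicle library 1, at 1.19 (adjusted p = 0.0281). B2m was at 29547, 36113 and 32775, overlapping with vehicle (log2 0.13, 95% interval -0.04 to 0.30, adjusted p = 0.322). Its difference was 0.058 without GSK3368715 library 2 and 0.20 without GSK3368715 library 1, and passed in neither case.

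**Figure D3:**
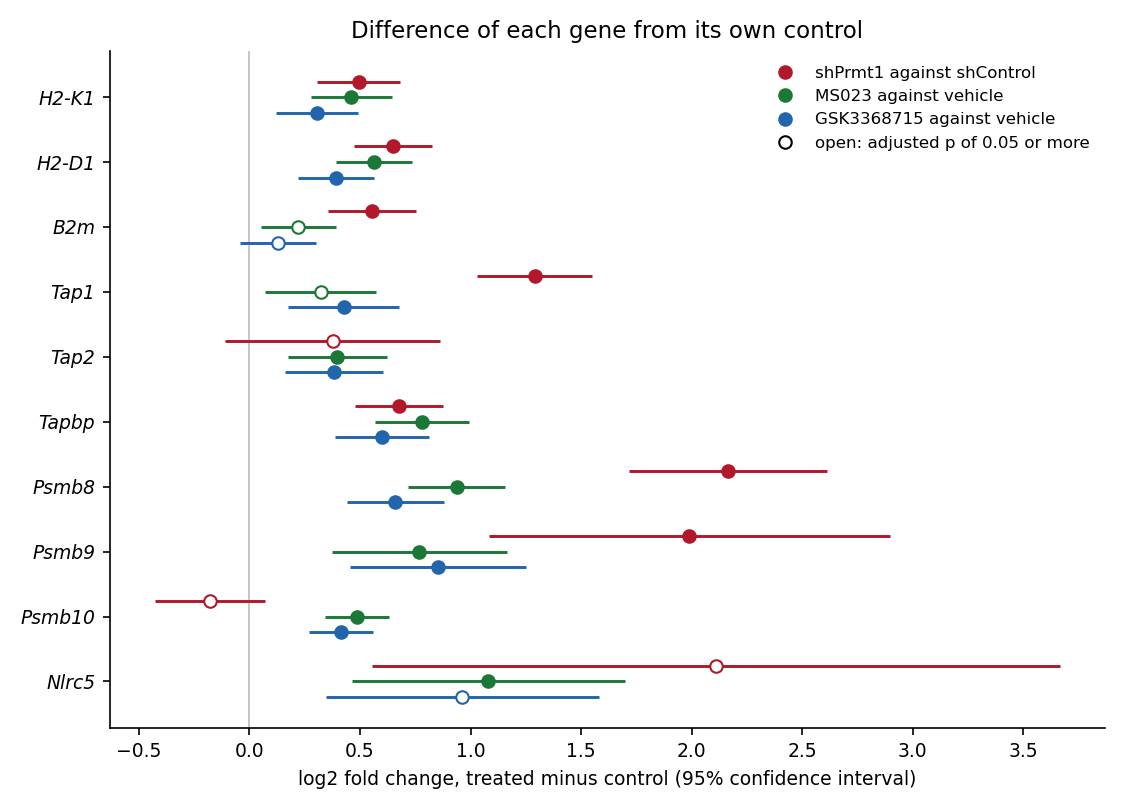
Log2 fold change of each gene against its own control group with its 95% confidence interval from limma, for shPrmt1 (red), MS023 (green) and GSK3368715 (blue); filled points passed an adjusted p of 0.05 and open points did not, and Psmb9 in the knockdown passed the filter through shPrmt1 alone. The intervals of Psmb8 in the knockdown (from 1.71) and under the inhibitors (up to 1.16) lie apart, Psmb10 in the knockdown spans 0, and Nlrc5 has the widest intervals.

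MS023 and GSK3368715 were compared with each other at the same dose and time, as 1 pair of compounds, and none of the 10 genes differed at an adjusted p under 0.05. Over all 13014 genes the contrast called 67, which is 0.515%, by limma, and 1722 had an unadjusted p under 0.05. The 67 became 2 to 11 with any 1 MS023 or GSK3368715 library left out, 38 with no filter and 8 with no trend. edgeR and DESeq2 on recovered reads called none of the 10 genes either, with 69 and 365 genes called in all. H2-K1, H2-D1 and Psmb8 were lower in every GSK3368715 library than in every MS023 library, beside 9.95% of all genes tested. For Psmb8 the log2 difference, GSK3368715 minus MS023, was -0.28 (95% interval -0.50 to -0.06, adjusted p = 0.267 by limma), for H2-D1 -0.17 (-0.35 to -0.00, adjusted p = 0.374) and for H2-K1 -0.16 (-0.34 to 0.03, adjusted p = 0.47). In Psmb9, Tap1, Tap2 and Psmb10 the compounds overlapped, with differences of 0.08 (-0.31 to 0.48), 0.10 (-0.15 to 0.35), -0.01 (-0.24 to 0.21) and -0.07 (-0.22 to 0.07). Tapbp overlapped only narrowly, with means of 19962.5 normalized counts in GSK3368715 and 22596.5 in MS023 (highest GSK3368715 library 21360, lowest MS023 library 21331). B2m overlapped too, with means of 32811.8 and 34860.1. For Nlrc5 the interval of -0.74 to 0.50 leaves room for a difference in either direction of the size seen in other genes.

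The immunoproteasome subunits were also set against the constitutive subunits whose place they take in the proteasome, as ratios of normalized counts within each library. Psmb8 was at 2.17% to 3.26% of Psmb5 in shControl and at 12.6% to 15.6% in shPrmt1, so that the geometric mean of the ratio was 5.04-fold higher, and the constitutive partner Psmb5 itself did not pass the test (log2 -0.13, adjusted p = 0.27 by limma). Psmb9 was at 0.234% to 0.593% of Psmb6 and at 1.17% to 2.16%, which is given as a description with no fold or test, since Psmb9 held 4 to 9 reads in each shControl library and passed the filter through shPrmt1 alone. Psmb10 was at 7.48% to 8.53% of Psmb7 against 6.75% to 7.76%, with overlap. With 3 libraries against 3, the exact permutation test (two-sided) cannot go below p = 0.1, which it gave for Psmb8, and for Psmb10 it gave p = 0.2.

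Under the inhibitors all 3 ratios rose without overlap, starting from a higher level in vehicle. Psmb8 was at 23% to 27.2% of Psmb5 in vehicle, at 48.5% to 49.2% in MS023 and at 39.2% to 44.8% in GSK3368715. Psmb9 was at 5.45% to 8.44% of Psmb6 in vehicle, at 9.63% to 12.1% in MS023 and at 9.73% to 12.4% in GSK3368715. Psmb10 was at 9.67% to 11% of Psmb7 in vehicle, at 14.4% to 15.8% in MS023 and at 13.3% to 14% in GSK3368715. Each of these 6 differences from vehicle had p = 0.1 in the exact permutation test, the smallest it allows.

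**Figure D4:**
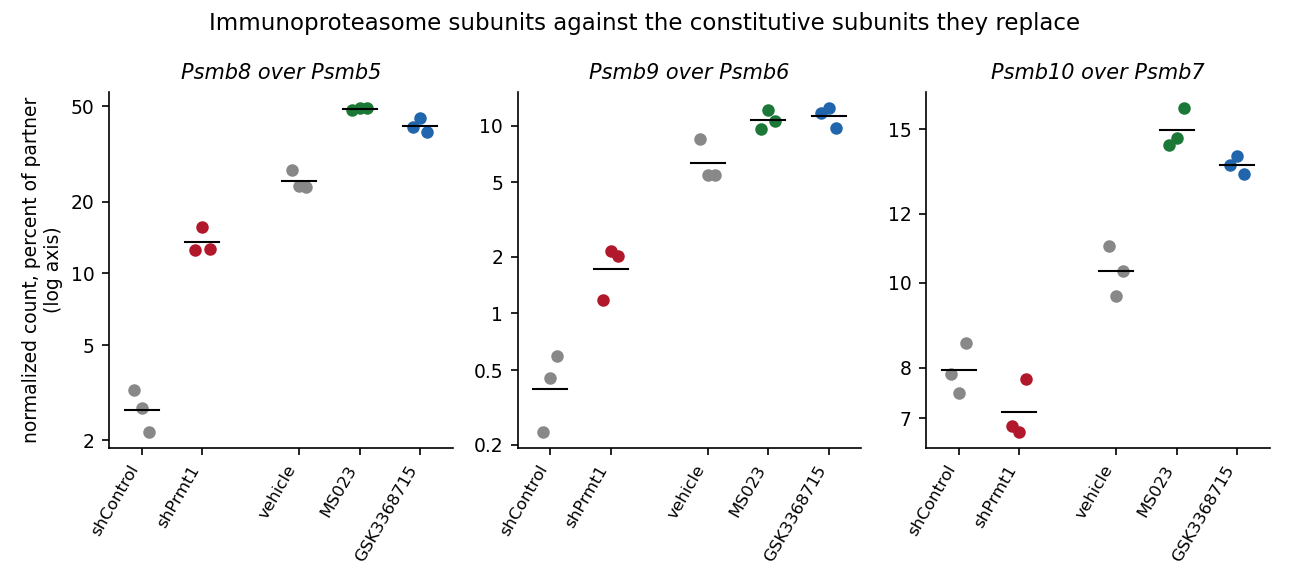
Normalized count of each immunoproteasome subunit as a percent of its constitutive partner, on log axes of different range, with 1 point per library and a line at the geometric mean of each group. The points of Psmb8 and Psmb9 lie higher in shPrmt1 and under both inhibitors, with Psmb9 in shControl resting on 4 to 9 reads per library, and those of Psmb10 lie higher under the inhibitors (13.3% to 15.8% against 9.67% to 11% in vehicle) and overlap in the knockdown.

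Other genes of the pathway were taken from lists written with earlier results of these data known. Of 27 further class I heavy chain genes and class I-like genes, 23 were found in the tables. In the knockdown 5 of 16 tested were called higher, under MS023 12 of 19 and under GSK3368715 7 of 19, beside 7.5%, 13.7% and 5.16% of all genes tested, with none called lower. In the knockdown, the number called higher was 2 without shControl library 2 or 3 or shPrmt1 library 3, 3 without shControl library 1 or shPrmt1 library 1, and 8 without shPrmt1 library 2, where 1 was called lower. Under GSK3368715 it was 3 without vehicle library 3 or GSK3368715 library 2, 4 without GSK3368715 library 1 or 3, 5 without vehicle library 2 and 12 without vehicle library 1, and under MS023 it was 11 to 14 with any library left out. The medians of the log2 fold changes were 0.40, 0.59 and 0.39 in the 3 comparisons. H2-Q4, a nonclassical heavy chain whose aligned part had the highest percent identity to H2-K1 and H2-D1, rose in all 3 comparisons, by 1.00, 0.81 and 0.56. H2-T24 rose by 1.02 in the knockdown and was at -0.20 and -0.05 under MS023 and GSK3368715, which did not pass the test. H2-Q7 rose by 0.80 in the knockdown, a call lost without any library but shPrmt1 library 2 (adjusted p = 0.0813 to 0.147 by limma), and by 0.63 under MS023. H2-Q5 rose by 0.71 and 0.59 under MS023 and GSK3368715, the second of which was lost without GSK3368715 library 1 (0.47, adjusted p = 0.0501), and Mr1, which presents microbial metabolites, rose by 0.74 under MS023. Hfe, a class I-like regulator of iron uptake, rose by 0.96 under MS023 and was at 1.52 in the knockdown (adjusted p = 0.087 by limma). H2 genes resemble each other, and how reads were split among them was not tested.

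Of 10 genes that fold and load class I molecules in the endoplasmic reticulum, 1 was called higher in the knockdown, 3 higher and 2 lower under MS023, and 1 higher under GSK3368715. Of all genes tested, 7.5%, 13.7% and 5.16% were called higher and, under MS023, 14.1% lower, so that 1 of 10 is near the share over all genes. Without vehicle library 2, 4 were called higher under GSK3368715, and without GSK3368715 library 2 it was 2. The gene called in each was Erap1, the aminopeptidase that trims peptides to class I length, at log2 fold changes of 0.58, 0.53 and 0.46, and its knockdown call was lost without shControl library 1 or 2 or shPrmt1 library 3 (adjusted p = 0.0686 to 0.108 by limma). Under MS023, the tapasin relative Tapbpl rose by 0.44 and the chaperone gene Calr by 0.29, while Ganab, a glucosidase subunit, fell by 0.21 and Bcap31 fell by 0.14. The call of Ganab was lost without MS023 library 1 or 2 (adjusted p = 0.0511 to 0.0602), and that of Bcap31 without any of the 6 libraries (0.0676 to 0.134). The chaperone genes Canx, Hspa5 and Pdia3 passed no test.

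Of 8 other proteasome genes, 1 was called higher in the knockdown, 2 higher and 1 lower under MS023 and 2 higher under GSK3368715, beside 7.5%, 13.7% and 5.16% of all genes tested that were called higher and 14.1% called lower under MS023. Without shPrmt1 library 2, 2 were called higher in the knockdown. Psme2, which encodes PA28 beta, a subunit of an activator that binds the immunoproteasome, rose by 0.54 in the knockdown, 0.76 under MS023 and 0.52 under GSK3368715. Its partner Psme1, PA28 alpha, rose by 0.50 and 0.40 under the inhibitors and was at 0.17 in the knockdown (adjusted p = 0.3 by limma). Psme3, which forms a nuclear activator, fell by 0.17 under MS023, a call lost without library 2 or 3 of vehicle or of MS023 (adjusted p = 0.0838 to 0.135). The constitutive subunits Psmb5, Psmb6 and Psmb7, the assembly factor Pomp and Psme4 passed no test. Of 6 cytosolic peptidases, only Thop1 under MS023 was called (0.21, adjusted p = 0.034), near the 13.7% of all genes called higher there, and the call was lost without vehicle library 1 or 3 or MS023 library 1 or 2 (adjusted p = 0.0651 to 0.12 by limma).

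Of 13 transcription regulators of class I genes, 2 were called higher and 1 lower in the knockdown, 4 higher and 1 lower under MS023, and 3 higher under GSK3368715, beside 7.5%, 13.7% and 5.16% of all genes tested that were called higher and 7.17% and 14.1% called lower in the knockdown and under MS023. The 1 of 13 called lower is near or below these shares. Irf1 rose by 0.48 and 0.50 and Irf2 by 0.20 and 0.29 under MS023 and GSK3368715, while in the knockdown both were at 0.14 and passed no test. Rfx5, a subunit of the factor that binds the class I enhancer together with NLRC5, fell by 0.58 in the knockdown, and Rfxank, its partner, rose by 0.43 under MS023. Creb1 rose by 0.37 in the knockdown, and Nfya, chosen for mention after its value was seen, was the one called lower under MS023 (-0.22). Without 1 library, calls were lost for Rfx5 (shControl library 1 or 2 or shPrmt1 library 1, adjusted p = 0.0509 to 0.0875 by limma), Creb1 (shControl library 1 or 3, 0.0855 to 0.103), Irf2 under MS023 (MS023 library 2 or 3, 0.0563 to 0.0707) and Nfya (vehicle library 3 or MS023 library 2, 0.0542 to 0.0788). Most class II genes were near the limit of detection, with H2-Aa, H2-Ab1 and H2-Ea at 0 reads in all 15 libraries. Exceptions were H2-DMa and Cd74, with group means of 57.9 to 77.1 and 54.7 to 74.0 normalized counts in the inhibitor experiment. At most 2 of 13 class II genes were tested in any comparison and none was called.

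**Figure D5:**
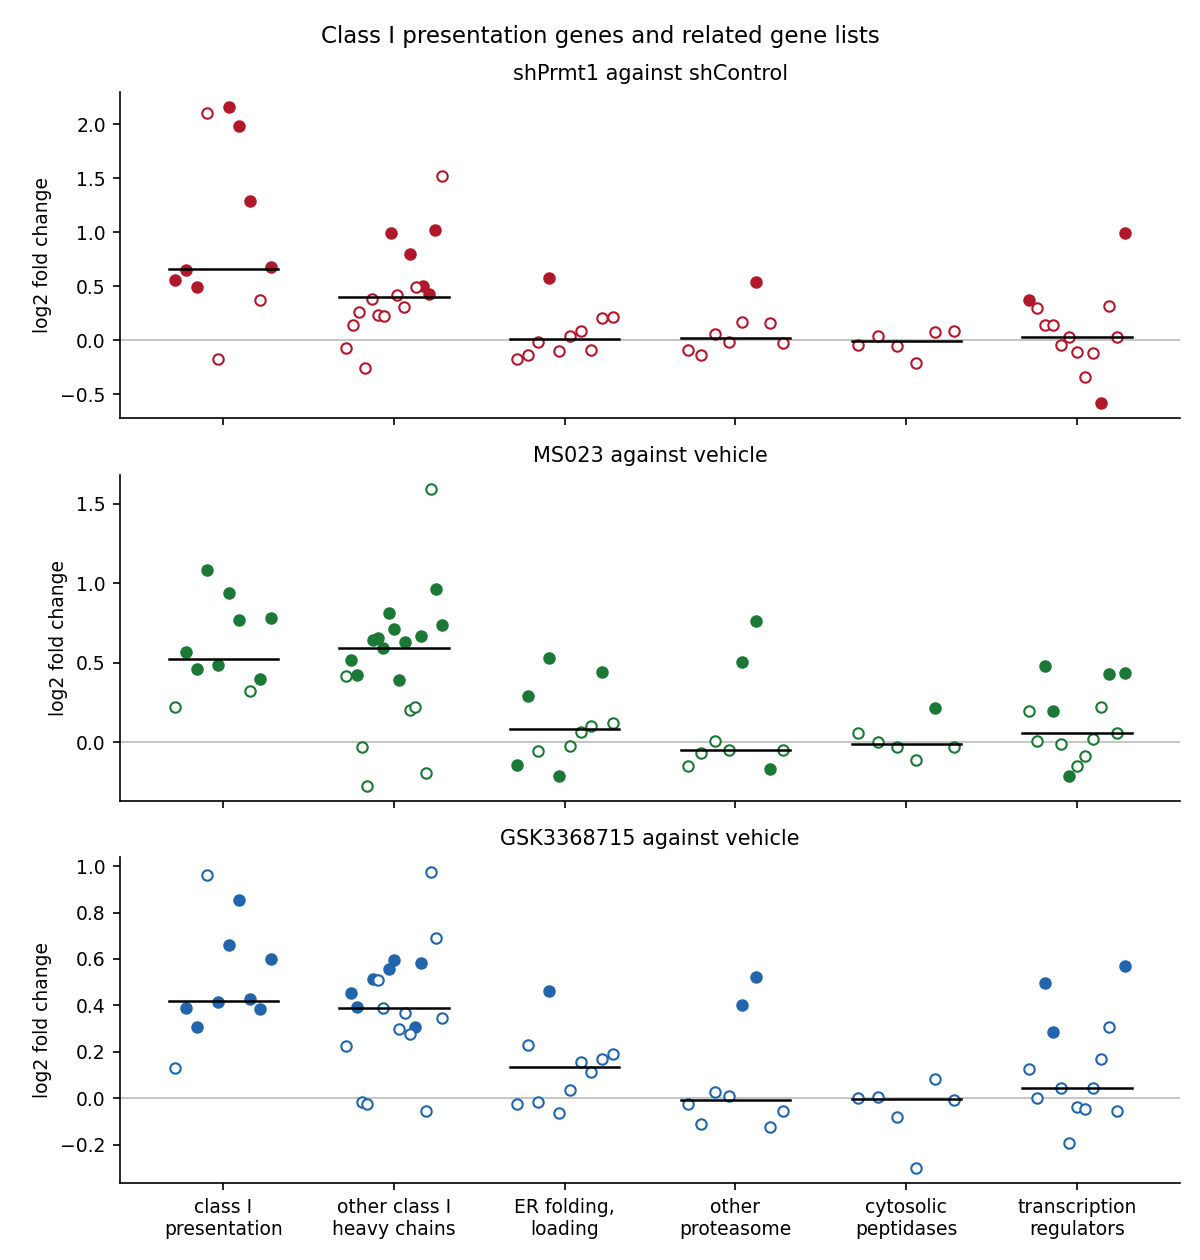
Log2 fold change of every tested gene of the 10 class I presentation genes and of 5 related lists, in 3 panels for shPrmt1, MS023 and GSK3368715 with axes of different range; filled points passed an adjusted p of 0.05, open points did not, and black lines are medians. The class I genes and the other class I heavy chains have medians of 0.39 to 0.66 (the knockdown median of 0.66 is 0.65 without Psmb9), and the medians of the other lists lie at -0.05 to 0.13.

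The 10 genes did not follow each other equally over the 15 libraries, each library being centred on its own control group. Pearson's r of a gene with the mean of the other 9 was 0.94 for H2-D1, 0.93 for Psmb8, 0.91 for H2-K1, 0.90 for Tap1, 0.88 for B2m, 0.86 for Tapbp and 0.84 for Psmb9. It was 0.72 for Nlrc5, 0.62 for Tap2 and -0.03 for Psmb10, which lay below 0 in the shPrmt1 libraries and above 0 in the inhibitor libraries. Of 10174 genes whose normalized counts averaged 50 or more in both tables, the 5 outside the set whose pattern was most like the mean of the 10 were Isg15 (r = 0.99), Oas1a (0.989), Bst2 (0.985), Irf7 (0.981) and Gbp3 (0.98). These values describe 15 libraries in 5 groups. Libraries of 1 experiment share their normalization and the control group on which they were centred, and the differences between groups enter each r. Irf7 rose by 1.80 in the knockdown, 0.93 under MS023 and 0.68 under GSK3368715, and Isg15, an interferon-induced ubiquitin-like protein, by 0.99, 0.61 and 0.51. The GSK3368715 calls of these 2 genes were lost without vehicle library 3 or GSK3368715 library 2, and that of Isg15 also without GSK3368715 library 3 (adjusted p = 0.0508 to 0.0748 by limma).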

How the data were processed

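RNA of CT26 cells was sequenced in 15 libraries as paired-end reads. The authors quantified them with Salmon 1.4.0 on mm10 and deposited a normalized signal, in which each gene's count stands divided by its library's DESeq2 size factor. Whole numbers of reads, as Salmon estimated them for each gene, were recovered for 100% of these values (within 0.01 of a read). These estimates are the reads given here. The authors' 3 tables of fold changes and p-values were not used.

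Genes that reached 10 normalized counts in 3 or more libraries were tested as log2(normalized count + 1) with limma 3.58.1 (trend, two-sided, R 4.3.3), with Benjamini-Hochberg adjustment over all genes tested and a threshold of 0.05. This scale understates changes of low genes. The knockdown was fitted on its 6 libraries and the inhibitors on all 9. On simulated knockdown data with log2 changes of 0.75, limma recovered 99 of 108 changed genes (11475 genes tested). On simulated MS023 data it recovered 89 of 102 (12967 genes tested). Of all calls on the simulated data, 7 of 195 and 4 of 188 were false. The simulation gave every gene the same relative spread between libraries beyond counting error, and it held no change under 0.75. Nlrc5 varied more, at 603 ± 253 normalized counts in vehicle (SD, n = 3), so these rates do not describe such genes or smaller changes. edgeR 4.0.16 and DESeq2 1.42.0 on recovered reads, other pseudocounts, filters and scalings, a replicate block and left-out libraries were alternatives. Libraries held 17284091 to 93697833 reads on genes.

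All 10 genes were reported. From the other lists the text gives genes called in at least 1 comparison, up to 6 a list, from the constitutive proteasome partners, markers at 0, overlapping genes and close copies, and the 5 genes most alike. The values of 1 gene of these lists are not reported here. Members and lists were chosen with earlier results of these data known. Promoter sequences and coordinates are from RefSeq (GRCm38.p6) and gene positions from an mm10 annotation, in which 34415 of 34432 gene IDs were found. Sequences were aligned with blastn 2.17.0.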

Additional observations from a re-analysis of the deposited data

Results flagged for a closer look

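Psmb10 moved to opposite sides in the experiments. All 3 shPrmt1 libraries lay below the shControl mean (log2 fold change -0.18), whereas all 3 MS023 libraries and all 3 GSK3368715 libraries lay above the vehicle mean (0.49 and 0.41). The knockdown value did not pass limma's test, the experiments were normalized separately, and the difference between them was not tested.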

How the results depend on the processing

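Each of the 10 genes kept its direction against control under every alternative in which it was tested. Psmb9 was not tested in the knockdown with a filter of 50 or without any 1 shPrmt1 library. The calls made for GSK3368715 moved most: 5 of the 10 genes were called with no filter, with no trend, with only the groups compared or with the replicate block, instead of 8, and 4 to 9 with a library left out. In the knockdown, 6 to 7 of the 9 genes tested were called with a shPrmt1 library left out, where Psmb9 was not tested. With a shControl library left out, it was 7 to 8 of 10, Psmb9 being among those tested. For MS023, left-out libraries gave 7 to 10 calls. Over all genes, they gave 652 to 2472 calls in the knockdown, 2409 to 3409 for MS023, 586 to 1274 for GSK3368715 and 2 to 11 between the inhibitors, against 1684, 3625, 1254 and 67. With only the groups compared, GSK3368715 gave 597. Between the inhibitors, no filter gave 38, no trend 8 and DESeq2 365. The replicate numbers were not taken to pair the libraries, since same-number correlations ran from -0.10 to 0.12. In the knockdown they were 0.06, 0.12 and 0.08, and each library correlated best with its own number there, which is a hint from the data, not from the design. The replicate block gave 2671 calls in the knockdown, with Tap2 (adjusted p = 0.0294 by limma) and Nlrc5 (0.00737) added, and 4 between the inhibitors. For MS023, Tap1 (0.36, adjusted p = 0.0427) and B2m (0.26, 0.0319) were called at the same total, and by DESeq2. Differences near 0 turned sign: with a library left out, the difference between the inhibitors ran from -0.075 to 0.047 for Tap2, -0.029 to 0.21 for Psmb9 and -0.20 to 0.032 for Nlrc5, and Prmt1 under GSK3368715 from -0.039 to 0.031 (0.0025 at the same total). Summing near-identical copies gave no value, since none were found in the reference. Causes were not tested. Psmb9 held 4 to 9 reads in each shControl library, so counting error is large there.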
